A study of Mus musculus with 18 samples.

Results

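The difference in loading of messenger RNAs into small extracellular vesicles (sEVs) between primary mouse microglia and neuron cultures was measured in 12 of the 18 libraries of a long-read series. Loading is the log2 ratio of a gene's level in sEVs to its level in the cells that released them. The loading difference is the microglia value minus the neuron value, so a positive value means that a transcript was more enriched, or less depleted, in microglia sEVs than in neuron sEVs. It was fitted for 8184 genes and read for the 4397 of them that were detected in the cells of both cultures, with 10 or more reads summed over the 3 cell libraries and reads in 2 or more of them. The 4 groups of 3 libraries each were microglia sEVs, microglia cells, neuron sEVs and neuron cells, all from mouse brain and grown as primary cultures. The series set out to compare the mRNA cargo of sEVs among brain cell types. The labels give no strain, age, sex or treatment. As they leave the origin of the replicates unstated, the spread that the p-values rest on may be technical.

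sEVs are vesicles of endosomal or plasma membrane origin that carry protein and RNA out of the cell. Transcripts of secreted and membrane proteins are translated on the endoplasmic reticulum (ER), whereas those of ribosomal proteins and translation factors are translated by free ribosomes in the cytosol. Microglia are the resident macrophages of the brain and have a large lysosomal system, and neurons send ribosomal protein and translation factor transcripts into their long processes.

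The 12 libraries held 434298 to 683381 reads, and counts of 0 therefore allow up to 3 reads per library, for counting error only. Cell libraries were sequenced in 1 pool and sEV libraries in another. Within a culture fraction and pool cannot be told apart, but both cultures were in the same pools. Microglia markers summed to 24094 ± 5076 reads per 1e6 (RPM) in microglia sEVs and 53254 ± 3345 in microglia cells, against 13.6 ± 4.75 in neuron sEVs and 224 ± 27.3 in neuron cells (SD, n = 3 each). Of 25 microglia markers 22 had reads in microglia sEVs and 24 in microglia cells, where the defining marker Cx3cr1 was at 0. Neuron markers summed to 73.6 ± 57.9 RPM in microglia sEVs and 24.9 ± 1.90 in microglia cells, against 4449 ± 564 in neuron sEVs and 15137 ± 1804 in neuron cells. The neuron cultures also carried astrocyte markers, of which 19 of 20 had reads in neuron cells and 16 in neuron sEVs. They summed to 4548 ± 671 RPM in neuron sEVs and 11652 ± 1072 in neuron cells, against 137 ± 42.4 in microglia sEVs and 225 ± 128 in microglia cells. Oligodendrocyte lineage markers reached 488 ± 73.9 RPM in neuron sEVs and 1394 ± 672 in neuron cells. The neuron libraries thus carried markers of other cells, and the part of those cells in the loading difference was not tested. In such bulk libraries fewer cells of a type and less RNA per cell cannot be told apart.

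Of the 4397 genes, 338 (7.69%) differed in loading at an adjusted p under 0.05 by edgeR's quasi-likelihood test, against 5.14% of all 8184 genes tested. Microglia loading was higher for 118 genes (2.68%, against 1.93% of all tested) and lower for 220 (5%, against 3.21%). Calls between sEVs and cells were more frequent in neurons among these genes, as they were over all genes read (36.9%, against 17.6% in microglia). Among genes not called for the difference, 358 were called higher and 491 lower in neuron sEVs only. In microglia sEVs only, 31 were called higher and 141 lower. Both loadings also make up the difference by which the 338 genes were chosen. Of the 118 genes with a higher difference, 82 were depleted from neuron sEVs and not called between sEVs and cells in microglia, and 30 were depleted in both cultures, more deeply in neurons. Of the 220 with a lower difference, 132 were enriched in neuron sEVs and not called in microglia, 25 were enriched in both, 38 were called lower in microglia sEVs and not called in neurons, and 13 were called in opposite directions, lower in microglia sEVs and higher in neuron sEVs. More than 3 reads in each of the 4 groups were present for 96 of the 118 and 185 of the 220. Leaving out any single cell library left 201 to 225 calls, and leaving out any single sEV library 233 to 390.

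**Figure D1:**
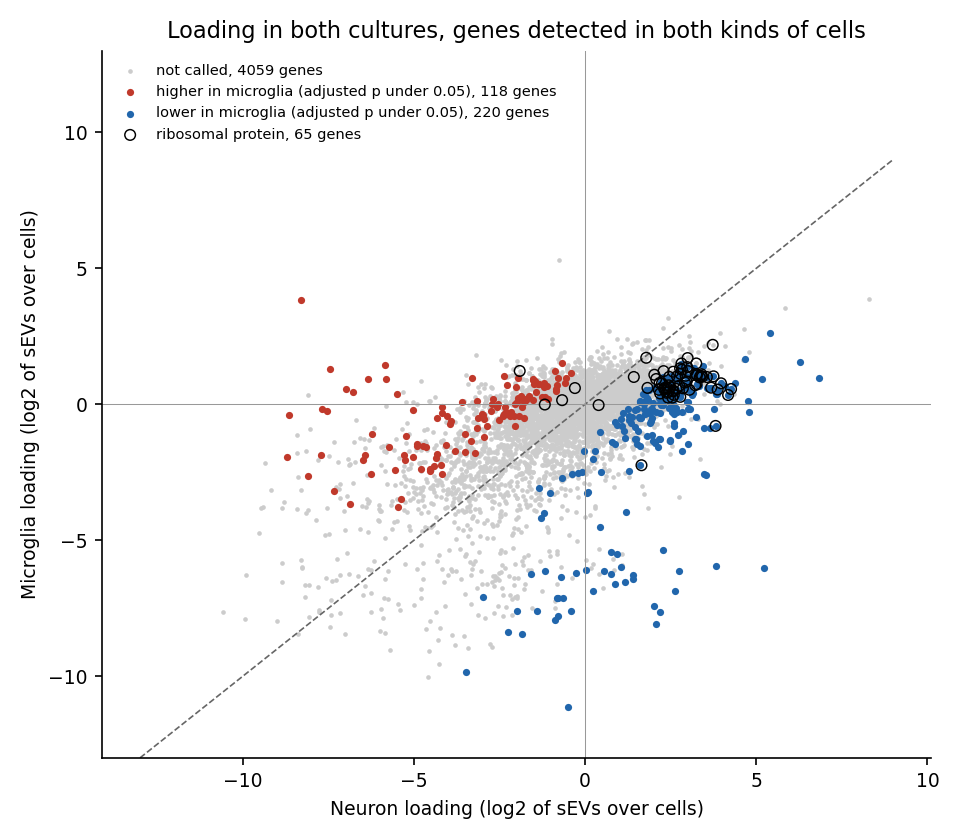
Loading in microglia (vertical axis) against loading in neurons (horizontal axis), each the log2 of sEVs over cells from the fit, for the 4397 genes detected in the cells of both cultures. Red and blue points are the 118 and 220 genes whose loading differed, open circles are the 65 ribosomal protein genes, and the dashed line marks equal loading. The ribosomal protein genes lie mostly to the right of the line.

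Loading spread more widely in neurons. Over the 4397 genes the loading had a standard deviation of 1.86 in microglia and 2.15 in neurons on the log2 scale, and 18.2% of genes in microglia against 28.6% in neurons lay beyond 2 in either direction. Within microglia 154 genes were called higher (3.5%) and 620 lower (14.1%) in sEVs than in cells, and within neurons 621 higher (14.1%) and 1002 lower (22.8%), 17.6% of genes in microglia and 36.9% in neurons. The split of the 338 genes depends on the scaling. With library totals in place of TMM factors, which ran from 0.639 to 0.721 in microglia cells and from 0.903 to 1.17 in the other 9 libraries, 627 genes were higher and 94 lower, and the median difference of the 4397 genes moved to 0.97, against 0.02 with TMM. Values below are relative to the TMM scale unless stated.

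Transcripts of cytosolic ribosomal proteins had the highest share of calls of any list with more than 3 genes read. Of the 65 genes read, 38 (58.5%) had a lower loading in microglia and 0 a higher one by edgeR, against 5% and 2.68% of all genes read. At an unadjusted p under 0.05 the counts were 54 lower and 1 higher, and DESeq2 called 49 lower and 1 higher. The median difference was -1.87, against 0.02 over all genes read. These short, abundant transcripts were enriched in sEVs of both cultures, with a median loading of 0.75 in microglia and 2.68 in neurons. In microglia 22 of the 65 were called higher in sEVs and 0 lower, and in neurons 57 higher and 0 lower. Summed over the 65 genes, they held 20138, 17814 and 15915 CPM (reads per 1e6 of TMM-scaled library size) in microglia sEVs, against 11395, 10476 and 10497 CPM in microglia cells. The sums were 97374, 84590.3 and 98756 CPM in neuron sEVs, against 11074, 10563 and 10506 CPM in neuron cells. With TMM the cell sums of the cultures overlap, and the sEV sums of neurons lie well above those of microglia. As a share of all reads the sums were 1.49% to 2.32% in microglia sEVs, against 0.671% to 0.822% in microglia cells, and 7.66% to 8.97% in neuron sEVs, against 1.23% to 1.296% in neuron cells, so on this scale the cell groups do not overlap. The sign held under every scaling tried: with library totals the median was -0.88, with 15 members lower and 1 higher, and it was then -1.85 relative to the median of the genes read, against -1.89 with TMM.

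**Figure D2:**
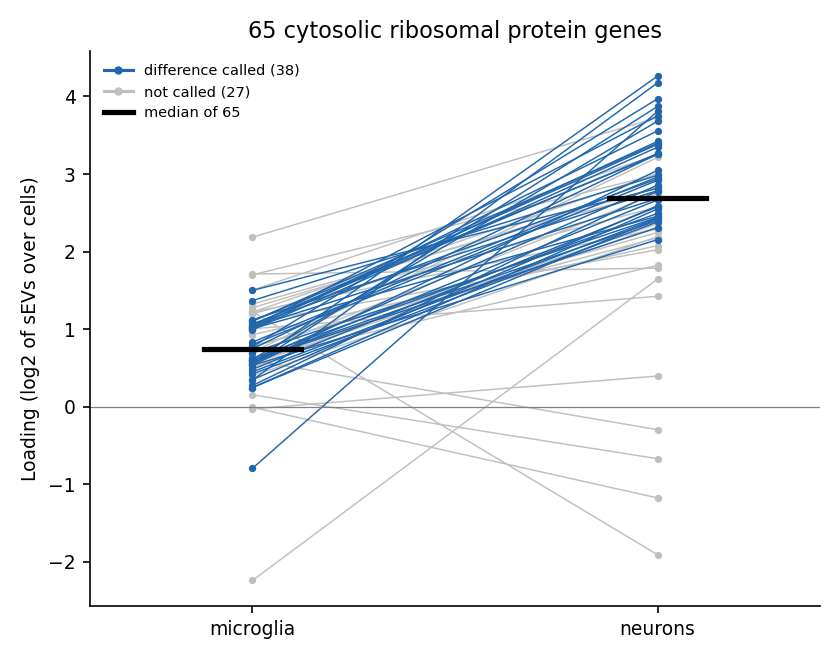
Loading (log2 of sEVs over cells) of 65 cytosolic ribosomal protein genes in microglia (left) and neurons (right). Each line is 1 gene, blue where the loading difference was called (38) and grey where it was not (27), and black bars are the medians, 0.75 in microglia and 2.68 in neurons.

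Rplp0, which encodes the stalk protein that recruits elongation factors to the large subunit, stood at 1299, 1549 and 1578 CPM in microglia sEVs, against 872, 1037 and 989 CPM in microglia cells, and 13118, 13122 and 12553 CPM in neuron sEVs, against 1044, 981 and 996 CPM in neuron cells. Fitted levels were 1.53-fold above the cells in microglia sEVs and 12.8-fold in neuron sEVs, with no overlap in either culture. Its loading difference was -3.07 ± 0.31 (approximate SE, adjusted p = 3.01e-05). Rps2, a protein of the small subunit, had 497, 380.5 and 358 CPM in microglia sEVs, against 386, 314 and 275 CPM in microglia cells, and 14959, 13042 and 11969 CPM in neuron sEVs, against 886, 833 and 489 CPM in neuron cells. Groups overlapped in microglia and did not in neurons, and the difference was -3.84 ± 0.40 (adjusted p = 3.82e-05). Rpsa, a small subunit protein also known as the laminin receptor, differed by -3.70 ± 0.49 (adjusted p = 0.000289), and Rpl8 and Rpl9 of the large subunit by -3.33 ± 0.38 and -3.20 ± 0.32 (adjusted p = 8.47e-05 and 3.01e-05). The largest difference in the list was that of Rpl31, with 21 reads in microglia sEVs and 867 in neuron sEVs, at -4.61 ± 1.14 (adjusted p = 0.0244). Its call was lost when any of 4 single libraries was left out, among them neuron sEV replicate 3. The smallest of the 38 called differences was that of Rpl26, at -1.32 ± 0.37 (adjusted p = 0.0487), a call lost in 17 of 24 alternatives. Those of Rplp0, Rps2, Rpsa and Rpl8 held in all 24, and that of Rpl9 was lost with full-splice-match reads only (adjusted p = 0.0699). The 27 members that missed the threshold had a median of -1.39, and 4 of them were above 0: Rps24, Rps4l, Rpl15 and Rpl27. Rps24 alone among these 4 exceeded 3 on the log2 scale, at 3.14 ± 1.07 (adjusted p = 0.112). Genes of this family have many processed pseudogenes, and the sources used here do not say how reads were shared among them.

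The rest of the translation apparatus split by member. Of 56 translation factor genes, 2 had a higher and 8 a lower loading in microglia, with a median difference of -0.34 that turned to 0.58 with library totals. The share called of 17.9% stands against 7.69% of all genes read. The 8 lower were the elongation factors Eef1a1, Eef1g and Eef2, the initiation complex subunits Eif3f, Eif3h and Eif3k, the helicase cofactor Eif4h and the poly(A)-binding protein gene Pabpc1. Eef1a1, which delivers aminoacyl-tRNA to the ribosome, had 3304, 5121 and 4047 CPM in microglia sEVs, against 3407, 2994 and 3124 CPM in microglia cells, and 14290.3, 11612 and 14777 CPM in neuron sEVs, against 1891, 2224 and 1858 CPM in neuron cells. Neuron sEVs lay 6.81-fold above neuron cells by the fit, while the microglia groups overlapped, a difference of -2.38 ± 0.36 (adjusted p = 0.000848). Eef2, the translocase, differed by -2.91 ± 0.36 (adjusted p = 0.000183), Pabpc1 by -2.98 ± 0.43 (adjusted p = 0.000487) and Eef1g by -2.55 ± 0.30 (adjusted p = 0.000116). Eif4h was called in opposite directions, with a loading of -1.25 in microglia and 1.18 in neurons (adjusted p = 0.0102 and 0.0049). The 2 members with a higher difference were Eif2s1, the alpha subunit of the initiation factor that stress kinases phosphorylate (1.91 ± 0.44, adjusted p = 0.0185), and the helicase gene Eif4a1 (1.498 ± 0.35, adjusted p = 0.0177). Both were depleted from neuron sEVs and not called in microglia. Their calls missed the threshold when single libraries were left out: without microglia cell replicate 2 for both, and also without neuron cell replicate 1 for Eif4a1 and microglia cell replicate 1, neuron cell replicate 2 or neuron sEV replicate 1 for Eif2s1, with adjusted p up to 0.0559. The calls of Eef1a1, Eef1g, Eif3k, Eif4h and Pabpc1 held in all 24 alternatives. Those of Eif3h and Eif3f were lost in 17 and 7, with adjusted p up to 0.722 and 0.181, and that of Eef2 was lost with full-splice-match reads only (adjusted p = 0.173). Most Eef2 reads of sEVs were incomplete splice matches, 99.8% in microglia and 71.4% in neurons. In the cells 98.4% and 93.2% of Eef2 reads were full-splice matches. Of 70 mitochondrial ribosomal protein genes 2 were lower (Mrpl12 and Mrps18a) and 0 higher, with 8 lower and 3 higher at an unadjusted p under 0.05, and the median was -0.07, or 0.87 with library totals. The share called of 2.86% lies below the 7.69% of all genes read. The calls of Mrpl12 and Mrps18a were lost in 16 and 17 of 24 alternatives (adjusted p up to 0.361 and 0.4997), among them with single libraries left out.

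Ferritin transcripts were abundant in sEVs and had a lower loading in microglia. Ftl1, the ferritin light chain that stores iron, had 60333, 45767 and 48182 CPM in microglia sEVs, against 29992, 25331 and 25725 CPM in microglia cells, and 165454, 255881 and 215075 CPM in neuron sEVs, against 5916, 5829.5 and 5813 CPM in neuron cells. The 3 libraries of sEVs lay above the 3 of cells in both cultures. The loading was 0.93 in microglia (adjusted p = 0.0938) and 5.18 in neurons (adjusted p = 1.38e-07), a difference of -4.25 ± 0.50 (adjusted p = 0.000119). Ftl1 made up 14.9% to 23.2% of all reads of neuron sEVs. It was left out only together with the predicted genes Gm42047 and Gm20186 and without TMM, so its own part in the main result was not tested. Fth1, the heavy chain, had 28246, 21927 and 22598 CPM in microglia sEVs, against 15884, 14022 and 13834 CPM in microglia cells, and 14491, 13974 and 15218 CPM in neuron sEVs, against 2044, 1897 and 1973 CPM in neuron cells, also with no overlap in either culture, and a difference of -2.15 ± 0.36 (adjusted p = 0.00203). Of the 12 iron genes read these were the only calls by edgeR (16.7%, against 7.69% of all genes read) and by DESeq2, and the list's median was 0.12. Both calls held in every alternative run for them.

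**Figure D3:**
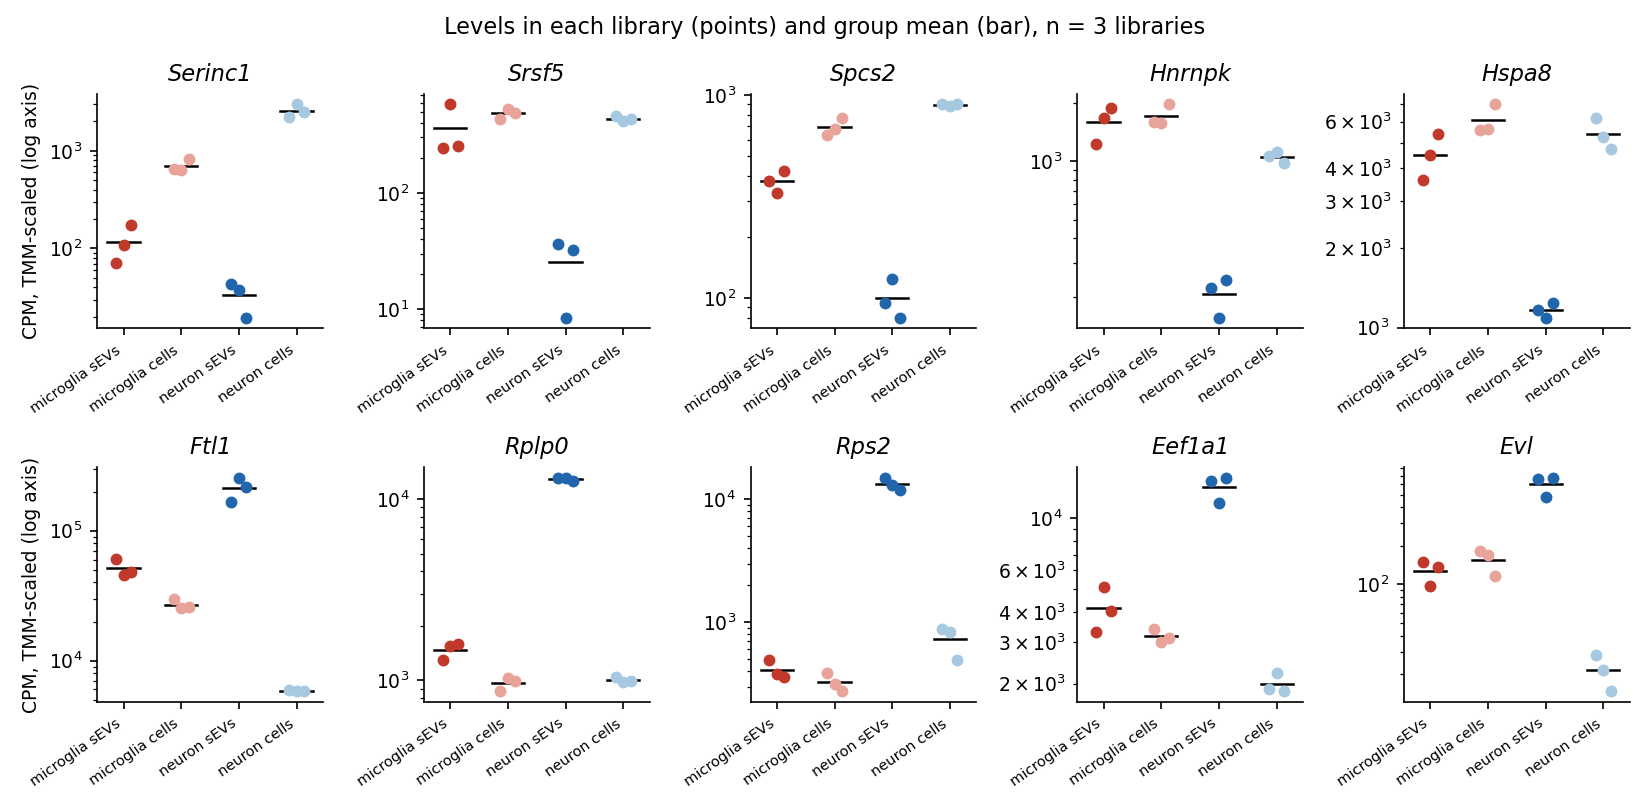
Levels of 10 genes in each library, in CPM of TMM-scaled library size on log axes, for microglia sEVs, microglia cells, neuron sEVs and neuron cells. Points are the 3 libraries of a group and bars their mean. The upper 5 genes had a higher and the lower 5 a lower loading in microglia than in neurons.

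Of 77 nuclear genes of the respiratory chain 0 were higher and 5 lower by edgeR, 1 and 12 by DESeq2, and 3 and 18 at an unadjusted p under 0.05. The 5 were the ATP synthase genes Atp5a1 and Atp5o, Cox7a2l of respiratory supercomplexes, Ndufb9 of complex I and Sdhc of complex II. That share of 6.49% is close to the 7.69% of all genes read. The median was -0.52 and turned to 0.45 with library totals. Cox7a2l had 440.4, 281 and 273 CPM in microglia sEVs, against 192, 207 and 185 CPM in microglia cells, and 1637, 2346 and 1874 CPM in neuron sEVs, against 213, 331 and 264 CPM in neuron cells, so its sEVs stood above its cells in both cultures, with a difference of -2.09 ± 0.36 (adjusted p = 0.00215). Its call was lost with library totals (adjusted p = 0.0884). The calls of Ndufb9, Sdhc, Atp5o and Atp5a1 were lost in 16, 12, 9 and 7 of 24 alternatives, with adjusted p up to 0.237, 0.442, 0.518 and 0.238, each also when single libraries were left out. Among 20 antioxidant genes 4 were lower and 0 higher by edgeR, 6 and 1 by DESeq2, and 6 and 2 at an unadjusted p under 0.05, with a median of -0.75, or 0.21 with library totals. The share lower of 20% stands against 5% of all genes read. They were the mitochondrial thioredoxin Txn2 (-2.59 ± 0.34, adjusted p = 0.000289), the peroxiredoxins Prdx6 (-2.59 ± 0.46) and Prdx4 (-2.39 ± 0.63) and the thioredoxin reductase Txnrd1 (-2.09 ± 0.48). Txn2 stood at 159, 124 and 192 CPM in microglia sEVs, against 176, 164 and 185 in microglia cells. It stood at 892, 1291 and 1147 CPM in neuron sEVs, against 215, 204 and 192 in neuron cells, where the groups did not overlap. The call of Txn2 held in all 24 alternatives. That of Prdx4 was lost in 16, 11 of which left out 1 library, and that of Txnrd1 in 6, among them without neuron cell replicate 2 and without neuron sEV replicate 2.

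ER chaperone transcripts were depleted from sEVs of both cultures. Of 16 genes of chaperones and disulphide isomerases 13 were called lower in microglia sEVs and 14 in neuron sEVs, against 14.1% and 22.8% of all genes read, and 0 higher in either. They had a median loading of -2.69 in microglia and -3.37 in neurons, and 2 higher and 1 lower loading difference, with a median of 0.90. The share called for the difference was 18.75%, against 7.69% of all genes read. Hspa5, the main ER chaperone BiP, had 533, 431 and 787 CPM in microglia sEVs, against 6733, 8298 and 9059.5 CPM in microglia cells, and 38.1, 59.1 and 63.99 CPM in neuron sEVs, against 1968, 2541 and 2569.9 CPM in neuron cells, by the fit 13.8-fold below the cells in microglia and 43.9-fold in neurons, with a difference of 1.67 ± 0.41 (adjusted p = 0.0229). Dnajb11, its co-chaperone, differed by 1.61 ± 0.43 (adjusted p = 0.0385). Both calls depend on single libraries: that of Hspa5 was lost in 8 of 24 alternatives, 6 of them leaving out 1 library, and that of Dnajb11 in 13, 10 of them of this kind, with adjusted p up to 0.0782 and 0.125. Txndc5, an ER disulphide isomerase, went the other way, with 0 reads in all 3 libraries of microglia sEVs and 63.02, 29.5 and 71.1 CPM in neuron sEVs. Against a floor of 3 reads per library its loading was at least 5.04-fold lower in microglia (adjusted p = 0.00145). Of 27 genes of signal recognition and ER translocation 2 were higher and 0 lower by edgeR, 3 and 1 by DESeq2, and 5 and 3 at an unadjusted p under 0.05. The share called by edgeR was 7.41%, against 7.69% of all genes read. Spcs2, a subunit of signal peptidase, had 377, 328 and 421 CPM in microglia sEVs, against 632, 677 and 769 CPM in microglia cells, and 94.5, 124 and 79.99 CPM in neuron sEVs, against 897, 877 and 899 CPM in neuron cells, depleted without overlap in both cultures and by more in neurons (2.28 ± 0.32, adjusted p = 0.000395). Ddost of the oligosaccharyltransferase differed by 1.99 ± 0.42 (adjusted p = 0.0099), with a loading of -2.22 in microglia and -4.21 in neurons. The calls of Txndc5, Spcs2 and Ddost held in all 24 alternatives.

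The 19 genes of glycosylation and GPI-anchor synthesis were the most depleted list in microglia among those with more than 3 genes read, with a median loading of -4.91 in microglia and -2.99 in neurons, a median difference of -2.18 and 2 lower and 0 higher calls by edgeR, 3 and 0 by DESeq2, and 4 and 0 at an unadjusted p under 0.05. The share called of 10.5% is near the 7.69% of all genes read. Pigs, a subunit of the GPI transamidase, had 0, 3.88 and 0 CPM in microglia sEVs, against 163, 224 and 185 CPM in microglia cells, and 23.2, 40.1 and 51.6 CPM in neuron sEVs, against 287, 315 and 313 CPM in neuron cells. The test gave an adjusted p of 0.0119, but microglia sEVs held 2 reads, under the floor of 3 per library, so no size is given for the difference. The call was lost with full-splice-match reads only. Mgat1, the Golgi transferase that starts complex N-glycans, had 0 reads in microglia sEVs, against 473, 532 and 453 CPM in microglia cells. In neuron sEVs its 21 reads all came from replicate 1, in a single isoform with a partly retained intron, so the neuron side of its call rests on that library. Without it, or without any of 5 single cell libraries, the call was lost, with adjusted p up to 1.00 over all alternatives.

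Lysosomal genes were depleted in both cultures, 34 of 38 called lower in microglia sEVs and 31 in neuron sEVs, against 14.1% and 22.8% of all genes read. The loading difference was higher for 2 and lower for 3 (13.2%, against 7.69% of all genes read), with median loadings of -3.34 in microglia and -3.30 in neurons. Npc2, which carries cholesterol out of the lysosome, was called in opposite directions. It had 1716, 1351 and 1366 CPM in microglia sEVs, against 3656, 4093 and 3868 CPM in microglia cells, and 551, 852 and 517 CPM in neuron sEVs, against 413, 364 and 327 CPM in neuron cells, without overlap in either culture, and a difference of -2.19 ± 0.38 (adjusted p = 0.00228). With library totals its adjusted p was 0.0663. Plbd2, a lysosomal phospholipase-like protein, had 0 reads in microglia sEVs and 5 in neuron sEVs, all of them incomplete matches, so no fold is given. Its call was lost with full-splice-match reads only, with isoforms seen in 2 or more libraries and without neuron sEV replicate 3. Tmem106b, a lysosomal membrane protein, and the protease gene Ctsh went the other way, with 0 reads in neuron sEVs. The call of Ctsh was lost in 15 of 24 alternatives, among them leaving out any single library of the 12 (adjusted p up to 0.118). Tmem106b had 28.996, 29.1 and 11.5 CPM in microglia sEVs, against 28.7, 28.3 and 34.3 in microglia cells, and its loading was at least 11.8-fold higher than in neurons (adjusted p = 0.00178). Of 16 subunits of the proton pump that acidifies lysosomes (V-ATPase) 2 were higher: Atp6v0c of the membrane ring (2.37 ± 0.58, adjusted p = 0.0239) and Atp6ap1 (1.90 ± 0.51, adjusted p = 0.0391). DESeq2 called 6 higher and 0 lower, and at an unadjusted p under 0.05 there were 7 and 0. The share called by edgeR was 12.5%, against 7.69% of all genes read. The calls of Atp6v0c and Atp6ap1 were lost in 7 and 12 of 24 alternatives, with adjusted p up to 0.0658 and 0.100, all but 2 of these by leaving out 1 library. Both were depleted in both cultures, Atp6v0c with a loading of -1.99 in microglia and -4.36 in neurons. Vma21, the assembly factor of this pump, was outside the list and is described with the largest differences.

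Transcripts of splicing proteins gave 1 call lower in sEVs in microglia, and 18 lower and 3 higher in neurons, among 34 genes read. Over all genes read 14.1% were lower in microglia, and 22.8% lower and 14.1% higher in neurons. The 34 genes of splicing and nuclear speckles had a median loading of -0.01 in microglia and -1.26 in neurons, with 3 higher (8.82%, against 2.68% of all genes read) and 0 lower calls by edgeR, 10 and 0 by DESeq2, 14 and 1 at an unadjusted p under 0.05, and 27 values above 0. Srsf5, a serine- and arginine-rich splicing factor, had 243, 580.4 and 255 CPM in microglia sEVs, against 434, 524 and 492 CPM in microglia cells, and 36.5, 8.44 and 31.997 CPM in neuron sEVs, against 459, 413 and 433 CPM in neuron cells. The microglia groups overlapped while neuron sEVs were 16.97-fold below neuron cells by the fit, a difference of 3.62 ± 0.54 (adjusted p = 0.00078). Srsf7 and Pnn, the nuclear speckle protein pinin, differed by 1.96 ± 0.42 and 4.06 ± 0.97 (adjusted p = 0.011 and 0.0211). The call of Srsf5 held in all 24 alternatives, that of Srsf7 was lost with full-splice-match reads only, and that of Pnn when any of 6 single libraries was left out (adjusted p up to 0.0618). Among 19 genes of proteins known to sort RNA into vesicles, 2 were higher and 1 lower, with a median of 1.02. The share called of 15.8% stands against 7.69% of all genes read. Hnrnpk had 1225, 1675 and 1887 CPM in microglia sEVs, against 1589.95, 1572 and 1971 CPM in microglia cells, and 222, 156 and 244 CPM in neuron sEVs, against 1068, 1122 and 976 CPM in neuron cells, with overlap in microglia and none in neurons (2.24 ± 0.39, adjusted p = 0.00223). Hnrnpa2b1 differed by 1.93 ± 0.46 (adjusted p = 0.0203), a call lost without microglia cell replicate 2, without neuron cell replicates 1 or 2 and with full-splice-match reads only (adjusted p up to 0.101). Ybx1, a cold shock domain protein that binds mRNA, went the other way although its sEVs were above its cells in both cultures. It had 401, 396 and 184 CPM in microglia sEVs, against 76.6, 56.6 and 27.5 CPM in microglia cells, and 7834, 9907 and 5164 CPM in neuron sEVs, against 207, 197 and 138 CPM in neuron cells, and a difference of -2.78 ± 0.67 (adjusted p = 0.0225). Its call was lost in 9 of 24 alternatives, with adjusted p between 5.24e-05 and 0.281. The nuclear-retained Malat1 was depleted in both cultures and its difference missed the threshold (-2.002 ± 0.68, adjusted p = 0.101). It was 1 of 2 nuclear-retained long non-coding RNAs read, of which 0 differed in loading. Between sEVs and cells, 1 of these 2 was called higher and 1 lower in neurons, and 1 lower in microglia. H3f3b, a gene of the replication-independent histone H3.3, was called in opposite directions, with 5062, 9376 and 8178 CPM in microglia sEVs, against 3359, 4163 and 4045 CPM in microglia cells, and 629, 557 and 734 CPM in neuron sEVs, against 1063, 1131 and 1144 CPM in neuron cells, and a difference of 1.76 ± 0.40 (adjusted p = 0.0161, or 0.0512 without microglia cell replicate 1).

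The lists of cytosolic chaperones, vesicle genes and the cytoskeleton differed in their share of calls. Of 20 heat shock chaperone genes 3 were higher and 0 lower by edgeR, 5 and 0 by DESeq2, and 6 and 1 at an unadjusted p under 0.05, with a median of 0.40. Their share of 15% higher by edgeR stands against 2.68% of all genes read. Hspa8, the constitutive Hsp70 found in many vesicle preparations, had 3623, 4474 and 5406 CPM in microglia sEVs, against 5555, 5645 and 6981 CPM in microglia cells, and 1171, 1091 and 1239 CPM in neuron sEVs, against 6214, 5242 and 4712 CPM in neuron cells, with a difference of 1.78 ± 0.34 (adjusted p = 0.00471), and Hsp90aa1 and Dnaja1 differed by 2.09 ± 0.43 and 1.84 ± 0.47 (adjusted p = 0.00932 and 0.0294). The call of Hspa8 held in all 24 alternatives, that of Hsp90aa1 was lost with full-splice-match reads only, and that of Dnaja1 in 11, of which 9 left out 1 library (adjusted p up to 0.0974). Of 33 genes of vesicle biogenesis and surface proteins, 1 was higher and 1 lower, 6.06% against 7.69% of all genes read. They were Rab11a, the GTPase of recycling endosomes (1.53 ± 0.33, adjusted p = 0.0125), and Chmp1a of the membrane scission complex (-1.42 ± 0.40, adjusted p = 0.0464), a call lost in 17 of 23 alternatives. Of 26 Rab GTPases Rab11a was also the only higher call and Rab31 the only lower one (-2.11 ± 0.51, adjusted p = 0.0224). Their share called of 7.69% matches that of all genes read. The call of Rab31 was lost in 8 of 24 alternatives, among them without microglia cell replicate 3 and without neuron cell replicates 1 or 3. Of 35 proteasome subunits Psmb2 was higher and Psmb10, the immunoproteasome subunit, lower, and the call of Psmb2 was lost in 9 of 24 alternatives. The share called of 5.71% lies below the 7.69% of all genes read. Psmb10 was enriched in neuron sEVs, with a loading of 0.07 in microglia and 2.49 in neurons (-2.42 ± 0.48, adjusted p = 0.00688). Of 33 actin and tubulin genes (15.2% called, against 7.69% of all genes read), Coro1a and Tubb2a were higher and Arpc1a, Arpc1b and Tpm4 lower. All 5 calls were unstable: that of Tpm4 was lost in 19 of 24 alternatives, that of Arpc1a in 18, that of Arpc1b in 16 and that of Tubb2a in 11, with adjusted p up to 0.368, 0.535, 0.4803 and 0.182. Coro1a, a coronin of leukocytes that also served as a microglia marker, lost its call in 13 of 24 alternatives, with adjusted p between 0.000447 and 0.118.

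Lists of lipid, sugar and immune genes gave 0 to 3 calls each. The shares called were 14.3% for glycolytic, 18.2% for MHC class I and 11.1% for immediate early genes, against 7.69% of all genes read. Of 19 cholesterol genes 3 were higher and 0 lower by edgeR, 3 and 2 by DESeq2, and 4 and 3 at an unadjusted p under 0.05. Their share of 15.8% higher stands against 2.68% of all genes read. They were Hmgcs1, Fdft1 and Nsdhl, all enzymes of the synthesis route, and the calls of Fdft1 and Nsdhl were lost in 8 and 7 of 24 alternatives, with adjusted p up to 0.0873 and 0.0731. The list's median was -0.13, or 0.88 with library totals. Hmgcs1 had 63.4, 139.8 and 191 CPM in microglia sEVs, against 79.8, 116 and 189.98 CPM in microglia cells, and 353, 325 and 332 CPM in neuron sEVs, against 1559.9, 1208 and 1452 CPM in neuron cells, a difference of 2.08 ± 0.49 (adjusted p = 0.0206, up to 0.0630 over all alternatives, with the call lost when any of 5 single libraries was left out and with full-splice-match reads only). Of 14 glycolytic genes the phosphofructokinase gene Pfkp was higher (3.32 ± 0.77, adjusted p = 0.0177) and Aldoc, an aldolase of astrocytes, lower (-2.04 ± 0.53, adjusted p = 0.0312). Aldoc had 998, 1124 and 1317 CPM in neuron sEVs, against 448, 406 and 300.3 in neuron cells. It is also an astrocyte marker, and its call was lost in 13 of 24 alternatives. Pfkp missed the threshold without microglia cell replicates 1 or 2 and with full-splice-match reads only (adjusted p up to 0.0589). Of 11 genes of MHC class I presentation Tap2 and Psmb10 were lower, and of 9 immediate early genes Btg2 was lower, a call lost in 10 of 24 alternatives. Of 12 histone genes H3f3b was the only call, a share of 8.33% that is close to the 7.69% of all genes read. By edgeR 0 of 7 interferon response genes and 0 of 5 cytokine genes passed the threshold. At an unadjusted p under 0.05, 1 interferon gene was higher and 1 cytokine gene lower, and by DESeq2 these counts were 0 and 1. Their most read members were the interferon-induced GTPase gene Igtp (3.11 ± 1.22, adjusted p = 0.168) and the macrophage cytokine gene Mif (-1.41 ± 0.44, adjusted p = 0.0794). Most members of these lists were not detected in the cells of both cultures. Marker genes read in both cultures numbered 3 for microglia, 8 for astrocytes, 2 for fibroblasts and vessels and 1 each for neurons (Rtn1) and oligodendrocytes (Cnp). Of these Coro1a and Aldoc passed the threshold. Those that missed it included Rtn1 (3.23 ± 0.93, adjusted p = 0.0519) and Cnp (1.01 ± 0.60, adjusted p = 0.405).

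**Figure D4:**
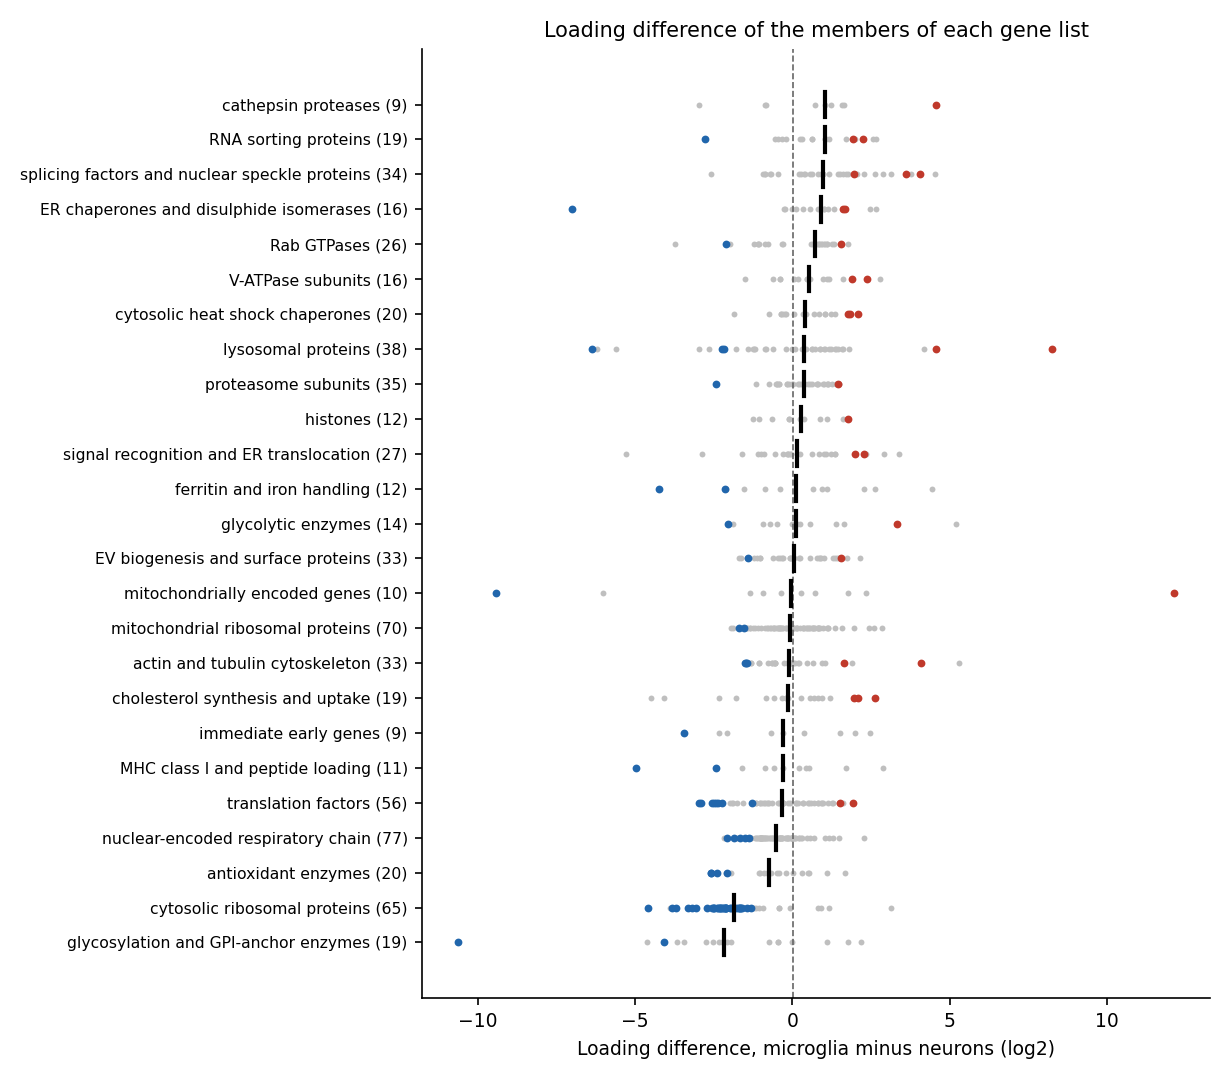
Loading difference (microglia minus neurons, log2) of the members of each gene list that were detected in the cells of both cultures, for lists with 9 or more such members. Red and blue points are members called higher and lower, grey points were not called, black bars are list medians, and the dashed line is the median of all genes read, 0.02. The median of the ribosomal protein genes is -1.87.

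The 10 largest positive differences among called genes with annotated names and more than 3 reads in each group included mt-Nd5 and the splicing genes Pnn and Srsf5 given above. Serinc1, a membrane protein that helps to build serine-derived lipids, had 70.7, 109 and 173 CPM in microglia sEVs, against 645, 643 and 817 CPM in microglia cells, and 43.1, 37.97 and 19.6 CPM in neuron sEVs, against 2237, 3004 and 2516 CPM in neuron cells. It was depleted in both cultures, to -2.58 in microglia and -6.26 in neurons, a difference of 3.68 ± 0.55 (adjusted p = 0.000751). Its reads were 98.5% and 80.0% full-splice matches in microglia and neuron sEVs. H13, the signal peptide peptidase of the ER, had 65.2, 126 and 112 CPM in microglia sEVs, against 223, 354 and 325 CPM in microglia cells, and 11.6, 14.8 and 0 CPM in neuron sEVs, against 467, 514 and 425 CPM in neuron cells, a difference of 4.16 ± 0.95 (adjusted p = 0.0162, or 0.0528 without microglia cell replicate 1). Vma21 had 94.2, 65.997 and 136 CPM in microglia sEVs, against 95.8, 181 and 149 CPM in microglia cells, and 14.9, 0 and 3.56 CPM in neuron sEVs, against 132, 115 and 156 CPM in neuron cells, a difference of 3.81 ± 0.78 (adjusted p = 0.00896), with overlap in microglia and none in neurons. Sgcb, the beta subunit of the sarcoglycan complex, differed by 3.46 ± 0.78 (adjusted p = 0.0147). The sorting nexin gene Snx1 (3.67 ± 0.93), the fatty alcohol enzyme gene Far1 (3.43 ± 0.87) and the phospholipid enzyme gene Cept1 (3.40 ± 0.86) had 6 to 12 reads in neuron sEVs. Their calls were lost without any single cell library and without microglia sEV replicate 3, among 7 to 10 of 24 alternatives, with adjusted p up to 0.0826. Those of Serinc1, Vma21 and Sgcb held in all 24.

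The largest negative differences fell into those with a neuron enrichment and those with a microglia depletion. Evl, which promotes actin filament growth, had 149, 97.1 and 136 CPM in microglia sEVs, against 182, 169.9 and 117 CPM in microglia cells, and 662, 477 and 677 CPM in neuron sEVs, against 28.4, 21.4 and 14.8 CPM in neuron cells. Microglia sEVs overlapped their cells and neuron sEVs stood far above theirs (-5.09 ± 0.65, adjusted p = 0.00023). The reads of the 2 cultures came from different isoforms. In microglia sEVs 76.3% belonged to 1 isoform that joins known junctions, and 0% were full-splice matches. In neuron sEVs 56.4% were full-splice matches and 40.5% incomplete ones. With full-splice-match reads only the adjusted p was 1.00. Ccni, an atypical cyclin, had 0, 44.6 and 82.2 CPM in microglia sEVs, against 25.5, 31.2 and 57.2 CPM in microglia cells, and 1272, 1791 and 1310.1 CPM in neuron sEVs, against 53.6, 64.3 and 44.3 CPM in neuron cells (-4.61 ± 0.92, adjusted p = 0.00738), and Ppp1r15b, which directs dephosphorylation of the initiation factor eIF2, had 57.99, 19.4 and 0 CPM in microglia sEVs, against 134, 164 and 160.2 CPM in microglia cells, and 216, 297 and 258 CPM in neuron sEVs, against 18.9, 30.6 and 19.7 CPM in neuron cells (-6.03 ± 1.01, adjusted p = 0.00178). Ppp1r15b was called in opposite directions, without overlap in either culture. The call of Ccni was lost with full-splice-match reads only (adjusted p = 0.0555). Incomplete splice matches made up 71.2% of Ccni reads in microglia sEVs, against 13.6% in microglia cells and 3.95% in neuron sEVs. Chd9, a chromatin remodeller, differed by -5.86 ± 1.34 (adjusted p = 0.0162), but 77.2% of its reads in microglia sEVs were an isoform with an unannotated exon. In neuron sEVs its most frequent isoform, with 49.7% of reads, overlapped the gene without matching its splicing. Ppfia3, a presynaptic scaffold protein, had 4 reads in microglia sEVs and 326 in neuron sEVs, 0% of them full-splice matches (-6.14 ± 1.34, adjusted p = 0.0151). The calls of Chd9 and Ppfia3 were lost in 5 of 24 and 3 of 23 alternatives, for Chd9 among them without neuron cell replicates 1 or 2 and for Ppfia3 without microglia cell replicate 2 or neuron sEV replicate 1. Depletion in microglia marked Plod3, a collagen lysyl hydroxylase (-5.96 ± 1.34), Tap2, the peptide transporter of MHC class I (-4.99 ± 1.33), and the autophagy protease gene Atg4d (-5.16 ± 1.15), with 4 to 9 reads in microglia sEVs, so the size of these differences is imprecise. Plod3 had 0, 0 and 6.57 CPM in microglia sEVs, against 217, 153 and 195 in microglia cells. The calls of Plod3 and Atg4d were lost with full-splice-match reads only and with isoforms seen in 2 or more libraries (adjusted p up to 1.00 and 0.136), and 0% of the Plod3 reads in sEVs of either culture were full-splice matches. The call of Tap2 was lost in 15 of 24 alternatives, with adjusted p between 0.00107 and 0.2799.

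Some genes had reads in the cells of both cultures and 0 reads in the sEVs of 1. Of the 118 higher genes, 18 had 0 reads in neuron sEVs, and of the 220 lower ones 32 had 0 reads in microglia sEVs. The same count over all genes read was not made, so these counts are given as a description only. Kpna1, a nuclear import receptor, had 34.4, 29.1 and 95.3 CPM in microglia sEVs, against 22.3, 14.2 and 27.5 in microglia cells. It had 0 reads in neuron sEVs, against 34.7, 32.1 and 45.9 CPM in neuron cells, so its loading was at least 16.8-fold higher in microglia (adjusted p = 0.00178). The bounds were 7.26-fold for Mccc1, a leucine breakdown enzyme, 7.08-fold for Xrn2, a nuclear exonuclease, and 6.104-fold for Rfwd3, a ubiquitin ligase of DNA repair. These 4 calls and that of Tmem106b held in all 24 alternatives run for each. Stradb, a pseudokinase that activates the kinase LKB1, was the reverse case. It had 0 reads in microglia sEVs, against 15.96, 16.99 and 9.16 CPM in microglia cells, and 1968, 3053 and 1442 CPM in neuron sEVs, against 58.4, 75.01 and 37.7 CPM in neuron cells. Its loading was at least 98.2-fold lower in microglia (adjusted p = 2.84e-05), and the call held in all 24 alternatives. Bounds for the vesicle coat GTPase gene Arf3 (35.8-fold), the stress transcription factor gene Atf5 (35.2-fold) and Kansl3 of a histone acetyltransferase complex (29.7-fold) rest largely on incompletely matching reads. Of their reads in neuron sEVs 99.6%, 52.4% and 95.9% were incomplete splice matches, and neuron sEV replicate 3 had 0 reads of Atf5 and Kansl3. With full-splice-match reads only the sign of Arf3 turned, to 5.92 with an adjusted p of 1.00, and its call was also lost when any single library of the 12 was left out. The call of Atf5 was lost in 10 of 24 alternatives, 6 of which left out 1 library.

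The labels of 2 mitochondrially encoded genes are uncertain. The fit gave mt-Nd5 a difference of 12.13 ± 2.12 and mt-Cytb a difference of -9.44 ± 1.96, the largest positive and negative values among called genes with more than 3 reads in each of the 4 groups. In microglia sEVs and cells mt-Nd5 had 360 and 15 reads and mt-Cytb 38 and 4343, while in neuron sEVs and cells mt-Nd5 had 104 and 35244 and mt-Cytb 1379 and 378. Reads thus sat mainly under mt-Nd5 in some groups and under mt-Cytb in others. The split also varied within a group. Replicates 1, 2 and 3 of microglia sEVs had 5, 8 and 347 reads of mt-Nd5 and 29, 3 and 6 of mt-Cytb. Summed over both labels, they gave 211 ± 287 RPM in microglia sEVs and 2683 ± 323 in microglia cells, against 781 ± 480 in neuron sEVs and 22103 ± 3973 in neuron cells (SD, n = 3 each). The sums were depleted from sEVs in both cultures, and no direction is drawn from either label.

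Isoforms were tested in the same way. Of 4216 isoforms detected in the cells of both cultures, 166 (3.94%) differed in loading, 89 higher (2.11%) and 77 lower (1.83%). Over all 9370 isoforms tested the shares were 2.08%, 1.16% and 0.918%. Full-splice matches made up 81 of the 89 and all 77 of the lower ones. Of the 89, 61 belonged to a gene called higher and 28 to a gene not called, and of the 77 lower ones 66 and 11. The smallest adjusted p belonged to an isoform of Pkm, the pyruvate kinase gene, with a difference of -5.38 ± 0.47 (adjusted p = 4.08e-05), while the gene as a whole was not called (-0.94 ± 0.41, adjusted p = 0.221). That isoform had 574, 635 and 952 reads in microglia sEVs, against 1138, 1179 and 2084 in microglia cells. It had 246, 246 and 406 reads in neuron sEVs, against 32, 18 and 15 in neuron cells, where another full-splice-match isoform had 589, 688 and 444. That other isoform had 0, 0 and 2 reads in neuron sEVs. Isoform labels can also differ between libraries of a group. Fth1 had 15571 and 11084 reads under 1 isoform in microglia sEV replicates 1 and 2 and 0 in replicate 3, which had 13736 under another that was at 0 in replicates 1 and 2. Gene sums are not touched by this, and isoform differences of this kind are given as values of the table only.

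The called genes were also followed in the astrocyte libraries of the series. Their group means do not enter the contrast, but they shared the fit, with its scaling, filter and dispersion, and the sequencing pools. Of the 118 genes with a higher loading in microglia, 62 were lower and 2 higher in astrocyte sEVs than in astrocyte cells, with a median loading of -1.25. Of the 220 genes with a lower loading in microglia, 123 were higher and 17 lower, with a median of 1.09. The background over all 4397 genes was 8.1% higher and 16.2% lower. For the 65 ribosomal protein genes the median astrocyte loading was 1.24, against 0.75 in microglia and 2.68 in neurons, and for Ftl1 the astrocyte loading was 5.601, above both. Astrocyte loading lay nearer the neuron than the microglia value for 45 of the 118 higher genes (38.1%), 137 of the 220 lower genes (62.3%) and 49.6% of the genes not called. The neuron cultures also carried astrocyte markers, and their part in these values was not tested. Across the 4397 genes, astrocyte loading had a Pearson correlation of 0.74 with neuron loading and 0.60 with microglia loading, as a description of genes that share library pools and depth.

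**Figure D5:**
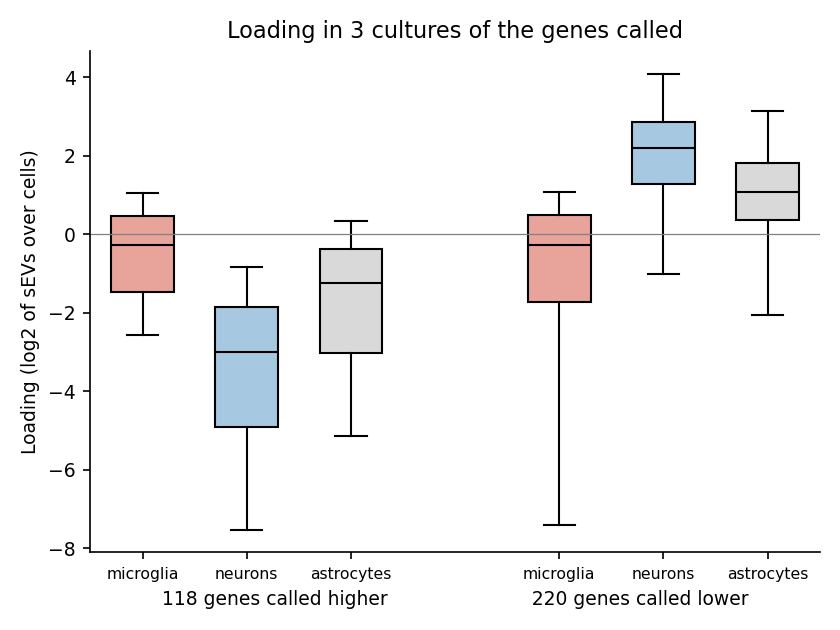
Loading (log2 of sEVs over cells) in microglia, neurons and astrocytes for the 118 genes called higher and the 220 called lower in microglia than in neurons. Boxes show the quartiles and median and whiskers the 5th to 95th percentile of genes. The microglia and neuron boxes differ by the choice of genes, and the astrocyte medians are -1.25 and 1.09.

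The reads behind the calls were mostly full-splice matches. Per gene, the mean share was 86.3 ± 1.76% in microglia sEVs and 91.0 ± 1.03% in microglia cells for genes called higher, against 78.6 ± 1.35% in neuron sEVs and 86.5 ± 1.14% in neuron cells (SD, n = 3 each). Genes called lower had 87.3 ± 0.574%, 90.7 ± 0.642%, 77.5 ± 2.27% and 86.7 ± 0.727% in the same groups. Genes not called had lower shares, 78.9%, 87.3%, 69.4% and 82.1%. Per gene, the share was lowest in neuron sEVs in all 3 sets. By share of reads this order did not hold throughout. Genes called lower then had 94.0% in neuron sEVs and 93.7% in neuron cells. In microglia cells genes not called had 92.8% of reads and genes called higher 90.8%.

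The detection limit set which genes could be read. Of the genes tested, 304 had 10 to 12 reads in the cell group with fewer reads and 421 had 7 to 9, and 2097 had 0 reads in 1 of the cell groups.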

How the data were processed

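Long-read cDNA libraries of cells and small extracellular vesicles (sEVs) were sequenced on a PacBio instrument, and the deposited table gives raw read counts per isoform and library. Reads were aligned with minimap2 to GRCm39, per the submitters' processing notes. The sources used here name neither the isoform caller, nor the annotation, nor any version of the software. The table holds 114425 isoforms, and its smallest count above 0 is 2, so single reads are absent from it. Of its libraries' columns 0 were left unmapped.

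Counts were summed per gene label, without strand or copy correction, so genes with near-identical copies (ribosomal proteins, ferritins, histones) may share reads. The test was edgeR 4.0.16's quasi-likelihood F test in R 4.3.3, with TMM factors, filterByExpr by group and a mean for each of the 6 groups of 18 libraries. P-values were adjusted by Benjamini-Hochberg over all 8184 genes or 9370 isoforms tested, with a threshold of 0.05. "Called" means past that threshold. Common dispersion was 0.310 for genes and 0.681 for isoforms. Depth was 434298 to 683381 reads in the 12 libraries compared. The ± values of loading differences are approximate standard errors, derived from the edgeR test. Each is the absolute log2 difference divided by the square root of the F statistic, and so includes spread between libraries. Floors cover counting error only. The steps were also run on counts simulated from the group means and dispersions of these data, as a check of the code only. Label switching and reads shared among gene copies were not simulated.

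Named genes were, among called genes with annotated names, the 10 largest differences in each direction with more than 3 reads in each of the 4 groups, the 5 largest bounds in each direction, called list members, the most read member of a list with no call, and markers. Rps24, Rps4l, Rpl15 and Rpl27, the label pair of mt-Nd5 and mt-Cytb, and the isoforms of Pkm and Fth1 were named after their values were seen. Genes and lists were chosen with earlier results of these data known. Alternatives were DESeq2 1.42.0, limma-voom (limma 3.58.1), other scalings, filters, read classes and detection limits, a replicate block, the 12 libraries alone and each library left out. The planned description of encoded proteins was not made, as no protein sequences were at hand. A called gene is not reported here.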

Additional observations from a re-analysis of the deposited data

Results flagged for a closer look

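The loading differed between microglia and neurons, by the test of the difference itself, for 338 of the 4397 genes detected in the cells of both cultures, 118 higher and 220 lower in microglia. Among cytosolic ribosomal protein genes the same test found 38 of 65 lower in microglia, and 0 higher. Ftl1 reads moved with the same contrast, at 4.5% to 6.9% of reads in microglia sEVs and 14.9% to 23.2% in neuron sEVs. Their own part in these counts was not tested, as the alternative without Ftl1 also left out Gm42047, Gm20186 and TMM.

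Outside the set detected in both cells, 83 of 3787 tested genes (2.19%) were called, 40 higher and 43 lower. Of these 25 had 0 reads in microglia cells and 14 had 0 in neuron cells, so their loading has no measured cell level on that side.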

How the results depend on the processing

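The count of 118 higher and 220 lower genes depends most on scaling. Library totals without TMM gave 627 and 94, and leaving out Ftl1, Gm42047 and Gm20186 without TMM, chosen after seeing the data, gave 389 and 125. DESeq2 gave 296 and 409, limma-voom 181 higher, the 12 libraries alone 194 higher, full-splice-match reads 140 lower, and isoforms seen in 2 or more libraries 191 higher. Genes higher in microglia sEVs than cells numbered 154, against 264 by DESeq2, 514 without TMM, 254 with the 12 libraries alone and 596 with the 3 genes left out. For isoforms (89 higher, 77 lower) library totals gave 334 and 42, and the 12 libraries alone 151 higher. Of the 338 genes, 335 were also called by DESeq2 in the same direction, 304 by limma-voom, 212 without TMM, 197 with full-splice-match reads and 280 without both libraries rich in Gm42047 (1 of neuron and 1 of astrocyte sEVs). The causes were not tested.

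Leaving out single libraries gave 54 to 171 higher and 143 to 251 lower genes, 50 to 136 higher and 416 to 687 lower in microglia sEVs than cells, 462 to 662 higher and 774 to 1097 lower in neurons, and 19 to 79 higher and 40 to 89 lower isoforms. The fewest higher genes, 54, remained without microglia cells replicate 2. Whether shared replicate numbers pair the samples is unresolved, as the labels do not say so, and the main fit did not pair them. Same-numbered sEVs and cells correlated weakly, at 0.04, -0.02 and 0.08 in microglia and 0.05, 0.06 and 0.06 in neurons. Of these, 2 microglia and 3 neuron numbers correlated best with their own. A replicate block gave 101 higher and 205 lower genes, 300 of them among the 338, and 52 higher isoforms. Over the named genes, 2515 values under an alternative kept direction and side of the threshold, 631 lost the call, 14 gained one and 1 reversed, that of Arf3, at 5.92 with full-splice-match reads only. Depth limits genes with few reads in sEVs, where 3 reads per library cannot be told from 0.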
